A study of Mus musculus with 18 samples.

Results

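The lipoxygenase family was described from the 8 rows of the expression table, of 23951 gene rows in all, that carry the symbols Alox8, Alox12e, Alox12, Alox12b, Aloxe3, Alox15, Alox5 and Alox5ap. The members were taken by symbol and not by a cut on measured values, though earlier results of these data were known when they were chosen. RNA had been sequenced from 18 libraries, 3 in each of 6 groups, of cells sorted from mouse ear skin at day 7 after induction with 4 injections of 2 mg tamoxifen at 8 weeks of age. Bulge hair follicle stem cells (HF-SC, CD45- CD49f-high CD34+) and basal keratinocytes (b-KC, CD45- CD49f-high CD34-) were sorted from the same mice. The DKO*-mT/mG mice 814, 815 and 817 carried floxed alleles of both JunB and c-Jun, the K5-Cre-ERT transgene, whose Cre is driven by the keratin 5 promoter of basal keratinocytes, and the mT/mG reporter. In these mice recombination was mosaic, so that each animal gave recombined mutant cells marked by GFP (HF-SC GFP and b-KC GFP) and non-mutant cells marked by Tomato (HF-SC Tom and b-KC Tom). The control mice 810, 825 and 828 (Co-mT/mG, here HF-SC Co and b-KC Co) also carried K5-Cre-ERT and the reporter and also received tamoxifen, with wild-type or heterozygous JunB and c-Jun.

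Lipoxygenases are dioxygenases that insert molecular oxygen into polyunsaturated fatty acids such as arachidonic acid and linoleic acid, and they are named by the carbon of arachidonic acid that they oxygenate. In the skin Alox12b and Aloxe3 work in sequence on the linoleate of ceramides and are needed for the water barrier, while the products of Alox5 are leukotrienes, which attract and activate leukocytes. Alox5ap is not an oxygenase but the membrane protein that presents arachidonic acid to Alox5.

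In the NCBIM37 annotation, 6 of the 8 genes lie on chromosome 11. Aloxe3 (68939398 to 68962617, + strand), Alox12b (68970491 to 68983294, + strand) and Alox8 (68997434 to 69011345, - strand) are neighbours with no other gene between them. Alox12 (70054959 to 70068855, - strand), Alox12e (70129112 to 70136130, - strand) and Alox15 (70157654 to 70165533, - strand) follow after 84 annotated genes and 1043613 bases, again with none between them. Alox5 lies on chromosome 6 (116360095 to 116411196, - strand) and Alox5ap on chromosome 5 (150076634 to 150099621, + strand). Between the longest coding transcripts of any 2 members, no stretch of 51 bases, the read length, was shared within the 2 mismatches that the alignment allowed. Other transcripts of these genes were not searched.

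The stretches of 250 bases before the start sites are shown from RefSeq (GRCm38.p6) for Alox8, Alox12e and Alox12, the members with an entry that were called between at least 1 DKO* population of b-KCs and Co, because the deleted genes encode AP-1 subunits. Aloxe3, also called there, has no entry. They are written 5' to 3' in the direction of transcription, with each GC box (GGGCGG, either strand) in capitals.
Alox8, chr11:69197844-69198093, - strand: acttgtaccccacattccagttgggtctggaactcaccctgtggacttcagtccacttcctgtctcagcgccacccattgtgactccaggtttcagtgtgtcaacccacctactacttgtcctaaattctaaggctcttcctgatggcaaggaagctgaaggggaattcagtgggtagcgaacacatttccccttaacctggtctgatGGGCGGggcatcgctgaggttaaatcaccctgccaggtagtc
Alox12e, chr11:70322531-70322780, - strand: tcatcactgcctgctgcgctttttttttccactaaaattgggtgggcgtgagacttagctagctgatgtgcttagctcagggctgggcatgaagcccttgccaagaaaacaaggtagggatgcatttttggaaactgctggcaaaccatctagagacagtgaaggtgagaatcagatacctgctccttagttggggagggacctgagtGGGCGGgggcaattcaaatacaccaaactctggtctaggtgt
Alox12, chr11:70255371-70255620, - strand: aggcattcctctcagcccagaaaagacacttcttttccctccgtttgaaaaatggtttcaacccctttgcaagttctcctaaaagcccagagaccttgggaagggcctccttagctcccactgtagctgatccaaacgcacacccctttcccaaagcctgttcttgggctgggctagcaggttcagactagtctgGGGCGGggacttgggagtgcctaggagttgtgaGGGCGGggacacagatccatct
In the RefSeq promoter windows, which run from 250 bases before to 50 bases after the start site, 5 of the 8 members had an entry (Alox8, Alox12e, Alox12, Alox12b and Alox5). Both strands were searched for the AP-1 motif TGANTCA, the CRE TGACGTCA, the STAT motif TTCNNNGAA and the TATA box TATAAA. These were found in 7.79%, 1.80%, 8.33% and 13.6% of 32544 promoter windows and in 0 of the 5, which says only that these letters were not in the windows. The GC box, which was looked for after the sequences had been seen, was found in 35.9% of the windows and in all 5, at 42 bases before the start site in both Alox8 and Alox12e.

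Depth was read from the steps of the FPKM values (fragment counts scaled by transcript length and library size) and was 16518500 to 26258000 reads per library. Jun had 29.6 to 88.4 FPKM in the 6 GFP libraries, 163 to 614 in the 6 Tom libraries and 835 to 1086 in the 6 Co libraries, and Junb 37.2 to 77.5, 208 to 402 and 436 to 772. Cd34 averaged 736, 198 and 286 FPKM in HF-SC Co, GFP and Tom and 1.45 to 1.69 in the b-KC groups. The HF-SC Tom libraries stood apart, since the summed FPKM of 5 endothelial markers was 976, 968 and 345 in mice 814, 815 and 817, against 35.9 to 57.9 in HF-SC Co and 1.52 to 22.1 in HF-SC GFP. Mouse 817 had the lowest Alox12e of the 3 DKO* mice in 4 of 4 populations, and results that rest on that mouse or on the HF-SC Tom libraries are also given without them. For Alox12e, calls without mouse 817 describe the weight of that mouse and are no test. In bulk samples, fewer cells of a type and less RNA per cell cannot be told apart.

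Alox8, the 8S-lipoxygenase of mouse skin, was the member that rose in all 4 DKO* populations. Its FPKM was 0.750, 0.904 and 1.23 in b-KC Co, 96.1, 95.6 and 54.5 in b-KC GFP and 49.01, 50.9 and 32.0 in b-KC Tom (mice 810, 825 and 828 for Co and 814, 815 and 817 for the others, an order kept below). In HF-SCs the Co libraries had 4.08, 6.26 and 7.42, the GFP libraries 76.6, 89.6 and 66.6, and the Tom libraries 15.995, 17.8 and 25.8. Every GFP library was above every Tom library of its cell type, and every Tom library above every Co library. The order of the group means was b-KC Co, HF-SC Co, HF-SC Tom, b-KC Tom, HF-SC GFP and b-KC GFP. Neighbours in this order did not overlap, except for HF-SC GFP (77.6 ± 11.5, SD, n = 3) and b-KC GFP (82.1 ± 23.9, SD, n = 3).

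On group means the increase of Alox8 over Co was 85.5-fold in b-KC GFP, 45.8-fold in b-KC Tom, 13.1-fold in HF-SC GFP and 3.35-fold in HF-SC Tom. The differences of log2(FPKM + 1), a scale that understates changes from low values, were 5.37 in b-KC GFP (SE 0.25, adjusted p = 2.30e-09, limma, Benjamini-Hochberg adjustment over 12751 genes) and 4.50 in b-KC Tom (adjusted p = 2.57e-08, same test). Ordered by p-value over all genes tested, Alox8 stood in place 4 in b-KC GFP and in place 5 in b-KC Tom. In HF-SCs the differences were 3.53 in GFP (adjusted p = 9.50e-08, limma) and 1.59 in Tom (adjusted p = 1.26e-04, limma). All 4 calls were kept in each of the alternative fits that were run.

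**Figure D1:**
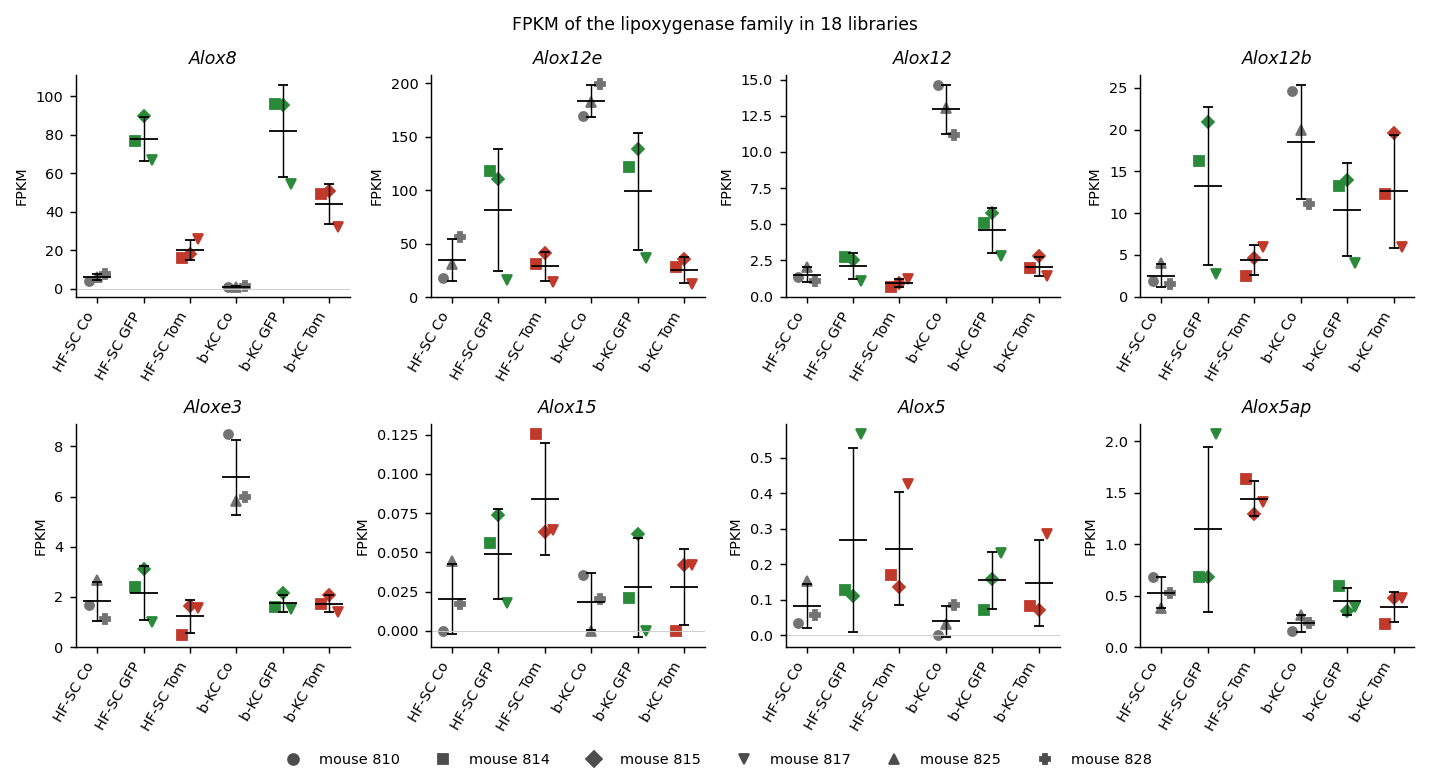
Each panel plots the FPKM of 1 member (linear axis, with its own scale) in the 6 groups, as 1 point per library shaped by mouse and coloured grey for Co, green for GFP and red for Tom, with the mean and SD of 3 libraries in black. Alox8 is near 1 FPKM in b-KC Co and between 54.5 and 96.1 in b-KC GFP, while Alox12e, Alox12 and Aloxe3 have their highest points in b-KC Co.

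Alox12e, the epidermal type 12-lipoxygenase, was the most abundant member in control cells and moved the other way in b-KCs. Its FPKM was 169, 183 and 199 in b-KC Co, 122, 139 and 36.6 in b-KC GFP and 28.2, 35.9 and 12.8 in b-KC Tom. Each b-KC library from DKO* mice was below each b-KC Co library. For b-KC Tom it differed from Co by -2.91 on the log2 scale (SE 0.68, adjusted p = 0.00302, limma), a 7.16-fold lower mean, while for b-KC GFP the value of -1.09 was not called (adjusted p = 0.213, limma). The call in b-KC Tom was lost when mouse 814, 825 or 828 was left out (adjusted p = 0.0118, 0.0152 and 0.0142, limma).

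In HF-SCs Alox12e had 17.7, 30.8 and 56.5 FPKM in the Co libraries, 118, 111 and 16.05 in those with GFP and 31.5, 41.6 and 14.8 in those with Tom. In mice 814 and 815 the HF-SC GFP values were above all HF-SC Co values, and that of mouse 817 was below them. The difference of HF-SC GFP from Co was 0.91 on the log2 scale (adjusted p = 0.313, limma), and 1.83 without mouse 817 (adjusted p = 3.50e-04, limma). Mouse 817 was singled out by its low Alox12e, so the second p-value is no test of a rise. Of 6 sebaceous gland markers, 1 (Scd1) fell in b-KC GFP and 5 (all but Mgst1) fell in b-KC Tom, with median differences of -0.88 and -2.27 (24.5% and 30.8% of all genes were called), and 0 were called in HF-SCs against Co (limma). Krt79, a keratin of sebaceous ducts, averaged 367 FPKM in b-KC Co, 177 with GFP and 42.7 with Tom, while Mgst1 averaged 225, 428 and 196. In HF-SC GFP Krt79 had 91.2, 107 and 29.2 FPKM beside 22.5 to 31.2 in HF-SC Co. The part of sebaceous cells in the values of Alox12e was not tested.

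Alox12, the platelet type 12S-lipoxygenase, fell in b-KCs in both DKO* populations. Its FPKM was 14.6, 13.0 and 11.2 in b-KC Co, 5.10, 5.81 and 2.81 in b-KC GFP and 1.99, 2.78 and 1.44 in b-KC Tom, and these 3 groups did not overlap. The differences from Co were -1.36 in b-KC GFP (SE 0.26, adjusted p = 8.83e-04, limma) and -2.20 in b-KC Tom (adjusted p = 1.21e-05, limma). In HF-SCs Alox12 was low, at 1.07 to 2.08 FPKM in Co, 1.10 to 2.73 in GFP and 0.647 to 1.23 in Tom, and these groups overlapped. In the b-KC groups 1 of the 6 sebaceous markers with GFP and 5 with Tom fell beside Alox12 (24.5% and 30.8% of all genes were called). Of 5 suprabasal and cornified keratinocyte markers 2 fell with either, Lor and Krt10. Krt10, a keratin of suprabasal cells, had means of 2914 FPKM in Co, 1005 with GFP and 776 with Tom. Krt1, Ivl and Krtdap were not called, and the median differences over the 5 were 0.04 with GFP and -0.70 with Tom. The part of either cell type in the values of Alox12 was not tested. Of 4 platelet markers, Pf4 was at 0 to 0.293 FPKM in b-KC Co, with means of 0.153 there, 1.43 with GFP and 0.589 with Tom. Itga2b reached 1 FPKM only in DKO* libraries, so its differences in b-KCs of 0.48 with GFP and 0.72 with Tom are no test. Ppbp and Gp9 averaged at most 0.0750 FPKM in the b-KC groups.

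The 2 members of the barrier route both had lower means in the b-KCs of DKO* mice than in b-KC Co, and only Aloxe3 was called there. Whether their changes differed was not tested. Aloxe3, the hepoxilin isomerase that acts after Alox12b, had 8.49, 5.85 and 5.98 FPKM in b-KC Co, 1.61, 2.14 and 1.501 in b-KC GFP and 1.71, 2.08 and 1.39 in b-KC Tom. Each DKO* library was below each Co library, with differences of -1.49 in b-KC GFP (SE 0.28, adjusted p = 8.00e-04, limma) and -1.502 in b-KC Tom (adjusted p = 5.15e-04, limma). In HF-SCs Aloxe3 stayed between 0.476 and 3.11 FPKM, its 3 groups overlapped, and none of the 3 HF-SC comparisons was called. Of 5 suprabasal and cornified keratinocyte markers, 2 fell in b-KC GFP and b-KC Tom beside Aloxe3 and 0 rose, where 24.5% and 30.8% of all genes were called, and the median differences over the 5 were 0.04 and -0.70. These were Krt10, with the means given above, and Lor, the cornified envelope protein loricrin, which averaged 24.6, 3.73 and 1.57 FPKM in Co, GFP and Tom. The other 3 were not called, with means in Co, GFP and Tom of 978, 1011 and 1380 for Krt1, 19.8, 34.2 and 11.5 for Ivl and 3321, 3973 and 3354 for Krtdap. The summed FPKM of the 5 was 6706 to 8312, 4793 to 6748 and 3824 to 6913, and their part in the values of Aloxe3 was not tested.

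Alox12b, the 12R-lipoxygenase, had 24.6, 19.9 and 11.1 FPKM in b-KC Co, 13.3, 13.9 and 4.01 in b-KC GFP and 12.2, 19.6 and 5.98 in b-KC Tom. These groups overlapped, and the differences from Co of -0.87 and -0.59 on the log2 scale were not called (adjusted p = 0.264 and 0.448, limma). Among the HF-SC libraries, Co had 1.91, 4.06 and 1.52 FPKM, GFP 16.2, 20.9 and 2.67, and Tom 2.52, 4.67 and 5.998. The GFP libraries of mice 814 and 815 were above all HF-SC Co libraries, and that of mouse 817 was within their range. The difference of HF-SC GFP from Co was 1.74 (95% confidence interval 0.45 to 3.03, adjusted p = 0.0331, limma), and 2.54 without mouse 817 (adjusted p = 3.48e-05, limma).

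Alox15, the leukocyte type 12/15-lipoxygenase, and Alox5, the 5-lipoxygenase, did not pass the filter of 1 FPKM in 3 libraries and were not tested. Alox15 was listed at 0 to 0.125 FPKM, which corresponds to 0 to 4.98 reads per library. Alox5 was listed at 0 to 0.565 FPKM, or 0 to 37.9 reads, and its highest library in each of the 4 DKO* populations came from mouse 817. On their transcripts 3 reads were worth 0.0474 to 0.0754 FPKM for Alox15 and 0.0405 to 0.0644 FPKM for Alox5, so at this depth differences of Alox15 rested on few reads. Its HF-SC Tom libraries, at 0.0630 to 0.125 FPKM, were all above those of HF-SC Co, at 0 to 0.0443 FPKM, which was not tested. An exact 0 need not mean that no transcript was there, since Krt14 and Krt15 were also listed at 0 in some of these keratinocyte libraries.

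Alox5ap passed the filter only through 4 HF-SC libraries of DKO* mice. Among the HF-SC libraries, Co had 0.685, 0.376 and 0.529 FPKM, GFP 0.682, 0.680 and 2.07, and Tom 1.63, 1.29 and 1.41, beside 0.151 to 0.592 FPKM in the b-KC libraries. Every HF-SC Tom library was above every HF-SC Co library, with a difference of 0.68 on the log2 scale that rested on 5.98 to 30.9 reads per library. Because the gene entered the fit only through libraries where it was high, 3 of them the HF-SC Tom libraries, this difference is a description and its call, kept in 4 of 14 alternative fits, is no test. With mice 814 and 815 left out of HF-SC Tom the difference was 0.66. The summed FPKM of 4 leukocyte markers was 1.26 to 1.52 in HF-SC Co, 2.27 to 5.64 in HF-SC Tom and 2.38 to 7.87 in HF-SC GFP. It was highest in HF-SC GFP of mouse 817, which also had the highest Alox5ap and Alox5, and Ptprc, which encodes CD45, averaged 0.0191, 0.255 and 0.373 FPKM in HF-SC Co, Tom and GFP. The part of leukocytes in these values was not tested.

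The calls at an adjusted p-value under 0.01 were counted over the 6 members tested. Between HF-SC GFP and Co 1 of the 6 was called, where 25.4% of all genes tested were, and between HF-SC Tom and Co 2 were called (29.6% of all genes), of which 1 was Alox5ap, so that 1 of the 5 members apart from it was called. Without mouse 817, 3 members were called in HF-SC GFP (Alox8, Alox12e and Alox12b), beside 37.2% of all genes. Between b-KC GFP and Co 3 were called (24.5% of all genes), and between b-KC Tom and Co 4 (30.8% of all genes). Over the 5 members apart from Alox5ap, the median difference in HF-SCs was 0.91 for GFP and -0.22 for Tom, where the medians over all genes were -0.05 and -0.04. With Alox5ap included the Tom median turned to 0.21. In b-KCs the median over the 5 was -1.09 for GFP and -1.502 for Tom, with -0.03 and -0.02 over all genes. The comparisons share their Co libraries within a cell type and their DKO* mice.

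**Figure D2:**
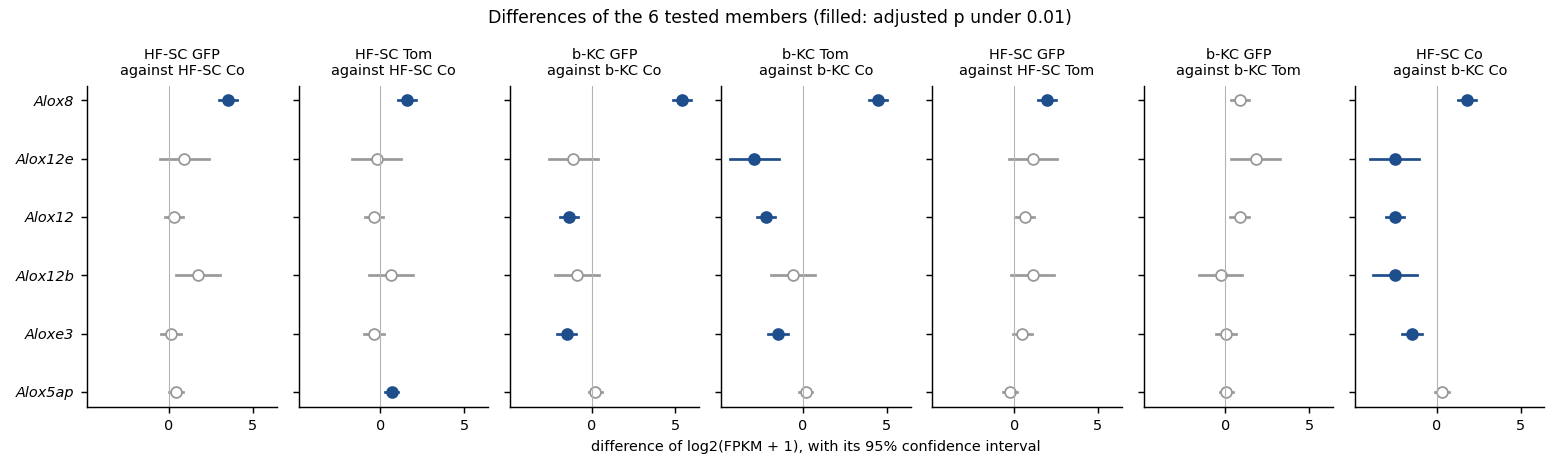
Differences of log2(FPKM + 1) with 95% confidence intervals (x axis) are plotted for the 6 tested members in 7 comparisons, 1 panel each, with filled points where the adjusted p-value (limma) was under 0.01 (for Alox5ap a description only). Alox8 lies right of 0 in every panel, with 5.37 in b-KC GFP, and Alox12, Alox12e and Aloxe3 lie left of 0 in both b-KC comparisons with Co.

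The resting difference between the cell types was the comparison with the most calls. Between HF-SC Co and b-KC Co 5 of the 6 members were called, where 38.0% of all genes were. Alox8 was 6.17-fold higher in HF-SC Co than in b-KC Co (log2 difference 1.80, adjusted p = 2.76e-05, limma). The other 4 were lower in HF-SC Co, and the means of b-KC Co over HF-SC Co were 8.62-fold for Alox12, 7.43-fold for Alox12b, 5.24-fold for Alox12e and 3.71-fold for Aloxe3. The calls of Alox12b and Alox12e were lost when control mouse 810, 825 or 828 was left out, with adjusted p-values up to 0.0433 and 0.0625 (limma). That of Alox12e was also lost without mouse 814 or 815 and with no filter on low values (adjusted p = 0.0125, 0.0113 and 0.0135, limma), and both kept their direction in each of these fits.

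Mutant and non-mutant cells of the same animals were compared directly. In HF-SCs 1 of the 6 members was called, where 4.99% of all genes were. This was Alox8, which was 4.79-fold, 5.03-fold and 2.59-fold higher in GFP than in Tom in mice 814, 815 and 817 (log2 difference 1.93, SE 0.25, adjusted p = 7.18e-05, limma). When only these 2 groups were fitted, with mouse as a fixed block, the difference was not called (adjusted p = 0.0104, limma), nor without mouse 815 (log2 difference 1.76, adjusted p = 0.0105, limma), nor with mice 814 and 815 left out of HF-SC Tom (log2 difference 1.54, adjusted p = 0.0221, limma). Alox12e was 3.76-fold, 2.66-fold and 1.09-fold higher in GFP, and Alox12b was 6.42-fold and 4.48-fold higher in mice 814 and 815 and 2.25-fold lower in mouse 817. Without mouse 817, 4 members were called higher in mutant than in non-mutant HF-SCs (Alox8, Alox12e, Alox12 and Alox12b), beside 13.4% of all genes.

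In b-KCs 0 of the 6 members were called between GFP and Tom, where 0.486% of all genes were (limma), and 3 of the 6 had an unadjusted p-value under 0.05, beside 11.5% of all genes. These were Alox8, Alox12 and Alox12e, which were higher in GFP in each of the 3 mice. Alox8 was 1.96-fold, 1.88-fold and 1.70-fold higher in GFP (log2 difference 0.87, 95% confidence interval 0.33 to 1.41, adjusted p = 0.109, limma). Alox12e was 4.32-fold, 3.86-fold and 2.87-fold higher (log2 difference 1.81, 95% confidence interval 0.36 to 3.27, adjusted p = 0.254, limma). Alox12 was 2.57-fold, 2.09-fold and 1.96-fold higher (log2 difference 0.84, adjusted p = 0.122, limma). Without mouse 817, Alox12 and Alox12e were called (adjusted p = 0.00937 and 0.00324, limma), beside 3.11% of all genes. On group means, mutant b-KCs were thus farther from Co than non-mutant b-KCs for Alox8, and nearer to Co for Alox12 and Alox12e.

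**Figure D3:**
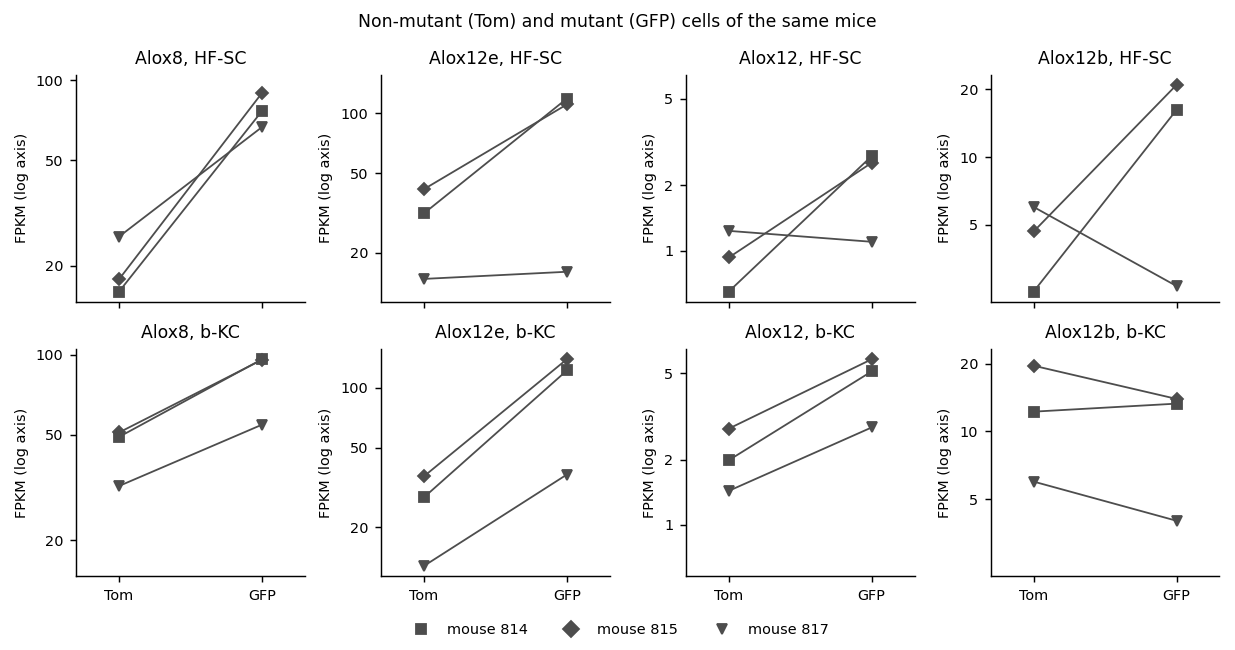
FPKM (log axis, shared between the rows of a column) of 4 members in the Tom and GFP cells of each DKO* mouse, joined by a line per mouse, with HF-SCs above and b-KCs below. All 3 lines rise for Alox8 in both cell types, and in HF-SCs mouse 817 is nearly level for Alox12e (1.09-fold) and falls for Alox12b.

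The changes in HF-SCs were then set against those in b-KCs by interaction terms. From Co to GFP, 2 of the 6 members differed between the cell types, where 5.21% of all genes did. The change of Alox8 was smaller in HF-SCs by 1.84 on the log2 scale (95% confidence interval of the difference -2.60 to -1.08, adjusted p = 0.00362, limma), and that of Alox12 was higher in HF-SCs by 1.65 (adjusted p = 0.00772, limma). When mouse 810, 814, 815, 825 or 828 was left out 0 members were called, and without mouse 817 there were 5, all but Alox5ap, beside 15.5% of all genes. With the mouse as a random block Aloxe3 was called as well (difference 1.63, adjusted p = 0.00320, limma).

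From Co to Tom, 2 members differed between the cell types, where 8.05% of all genes did. The change of Alox8 was smaller in HF-SCs by 2.90 (adjusted p = 7.88e-05, limma), a call kept in each alternative fit, and that of Alox12 was higher in HF-SCs by 1.84 (adjusted p = 0.00256, limma). The Alox12 difference was not called without mouse 810, 814, 815 or 828, with adjusted p-values of 0.0147 to 0.0231 (limma). With the mouse as a random block Alox12e was called as well (difference 2.69, adjusted p = 0.00871, limma). Between the Tom populations themselves, Alox8 was 2.21-fold higher in b-KCs and the libraries did not overlap. The endothelial marker sum was 345 to 976 FPKM in HF-SC Tom and 4.39 to 7.73 in b-KC Tom, and its part in these differences was not tested.

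The make-up of the summed lipoxygenase FPKM changed with these shifts. FPKM is a value per length, so that members can be added and compared. In b-KC Co the 7 lipoxygenases summed to 223 ± 5.50 FPKM (SD, n = 3), of which Alox12e made up 82.3% and Alox8 0.430%. In b-KC GFP the sum was 198 ± 85.6 (SD, n = 3) with 47.3% Alox12e and 44.1% Alox8, and in b-KC Tom it was 86.2 ± 29.4 (SD, n = 3) with 28.7% Alox12e and 52.6% Alox8. The b-KC Tom sums were all below the b-KC Co sums, while the b-KC GFP sums lay on both sides of them. In HF-SCs the sum was 46.9 ± 20.5 FPKM (SD, n = 3) in Co, 177 ± 77.3 in GFP and 56.0 ± 9.39 in Tom, with Alox8 shares of 13.3%, 50.2% and 36.5%. The Alox8 share was higher in every DKO* library than in every Co library of its cell type.

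**Figure D4:**
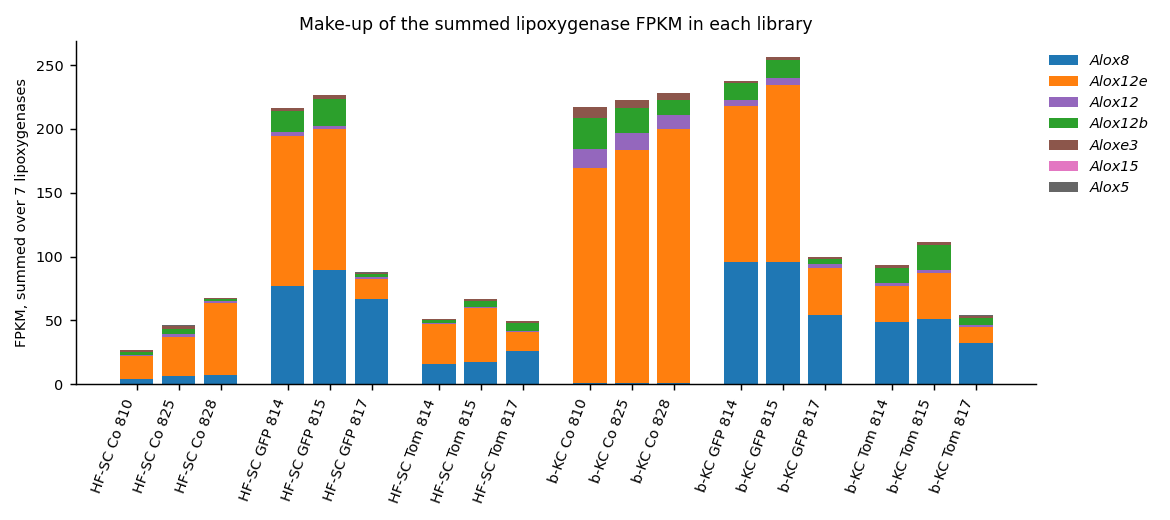
Stacked bars give the FPKM of the 7 lipoxygenases in each of the 18 libraries, named by group and mouse, so that the height is their sum. Alox12e (orange) makes up most of each b-KC Co bar, where Alox8 (blue) is 0.430% on average, and Alox8 takes 37.3% to 59.4% of the b-KC bars of DKO* mice.

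The genes whose log2(FPKM + 1) was most like that of each tested member over the 18 libraries were listed as a description. For Alox8 these were Wfdc17, Map2k1 and Gja1 (Pearson r = 0.949, 0.940 and 0.939), and for Alox12e Far2, Rdh9 and Cidea (r = 0.925, 0.908 and 0.908). Alox12 was most like Acox2, Tesc and Rarres1 (r = 0.980, 0.971 and 0.966), Alox12b like Bpifc, Mvd and Cyp4f39 (r = 0.958, 0.931 and 0.929) and Aloxe3 like Map2, Krt78 and Elovl6 (r = 0.957, 0.944 and 0.938). Alox5ap was most like Fcer1g, Fcgr2b and Lilrb4 (r = 0.955, 0.915 and 0.913), which encode receptors or receptor subunits of myeloid cells. Among the members, Alox12 and Aloxe3 were the most alike (r = 0.886), while Alox8 had r of -0.592 with Aloxe3. The libraries share 6 mice and fall into groups, so these values are no independent points.

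Upstream of the lipoxygenases, phospholipases A2 release arachidonic acid from membranes. Of 13 such genes 8 passed the filter, of which Pla2g4b and Pla2g2d did so only through DKO* libraries and are left out of the counts. Of the other 6, in HF-SC GFP 2 rose and 0 fell (median difference 0.07, beside calls in 25.4% of all genes), and without mouse 817 3 rose and 1 fell (37.2% of all genes). In HF-SC Tom 2 rose and 3 fell (median -0.04, 29.6% of all genes), without mouse 817 1 rose and 3 fell (45.6%), and with mice 814 and 815 left out of it 2 rose and 1 fell (median 0.11, 19.1%). In b-KCs 2 rose and 2 fell with GFP (median -0.43, 24.5% of all genes) and with Tom (median -0.48, 30.8% of all genes). Without mouse 817 these were 2 and 3 with GFP (45.4% of all genes) and 2 and 2 with Tom (43.5%). Pla2g4e, a cytosolic phospholipase A2, rose in all 4 populations, from a mean of 0.523 to 21.5 FPKM in HF-SC GFP (log2 difference 3.82, SE 0.42) and from 4.36 to 20.2 FPKM in b-KC GFP. With the mouse as a random block its call in b-KC Tom was lost, so that 1 rose and 2 fell there (log2 difference 1.51, adjusted p = 0.0120, limma). The same block left 1 risen and 3 fallen in HF-SC Tom, where Pla2g4f was no longer called (0.82, adjusted p = 0.0130, limma), and 2 risen and 1 fallen in HF-SC GFP, where Pla2g4a was (-0.71, adjusted p = 0.00972, limma), beside 31.2% and 26.3% of all genes. Pla2g2f, a secreted form of the epidermis, fell by 1.20 in b-KC GFP, by 1.82 in b-KC Tom and by 1.24 in HF-SC Tom on the log2 scale, and Pla2g4a fell in the same 3 populations. With mice 814 and 815 left out of HF-SC Tom, Pla2g4a and Pla2g6 were not called there (-1.01 and -0.49, adjusted p = 0.0252 and 0.0513, limma).

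The barrier lipid route that holds Alox12b and Aloxe3 was read from 17 other genes, which act before or after them or regulate the route, and all were tested. In HF-SC GFP 13 of the 17 rose and 1 fell, with a median difference of 1.79, beside calls in 25.4% of all genes in either direction. In HF-SC Tom 7 rose and 1 fell (median 0.83, 29.6% of all genes), in b-KC GFP 2 rose and 1 fell (median -0.02, 24.5%), and in b-KC Tom 1 rose and 2 fell (median -0.28, 30.8%). Without mouse 817, 5 rose and 2 fell in b-KC GFP (median 0.14, 45.4% of all genes) and 3 rose and 2 fell in b-KC Tom (43.5%). The largest rises in HF-SC GFP were those of Tgm1, the transglutaminase of the cornified envelope (3.48, SE 0.51, adjusted p = 8.1e-05, limma), Ephx3, an epoxide hydrolase (2.92, adjusted p = 1.03e-04, limma), and Sult2b1, the cholesterol sulfotransferase (2.80, adjusted p = 2.6e-05, limma). Ephx2, another epoxide hydrolase, fell by 1.39. The change from Co to GFP was higher in HF-SCs than in b-KCs for 6 of the 17, beside calls in 5.21% of all genes. It was higher for 13 without mouse 817 (15.5% of all genes) and for 12 with the mouse as a random block (10.8%). Among the 6 were the lipid transporter Abca12 (2.92, adjusted p = 0.00162, limma) and Cyp4f39 (2.69, adjusted p = 0.00497, limma). Between mutant and non-mutant HF-SCs 3 of the 17 were called higher in GFP (4.99% of all genes), 5 with the mouse as a random block (7.74%) and 11 without mouse 817 (13.4%). With mice 814 and 815 left out of HF-SC Tom, 0 of the 17 were called in that comparison (2.26% of all genes, limma), and 2 rose and 1 fell in HF-SC Tom against Co (19.1%). Markers of suprabasal and cornified keratinocytes moved beside the list in HF-SCs, where Krt1, Ivl and Krtdap rose in GFP, Krt1 and Krtdap rose in Tom, and 0 of the 5 fell. Of 6 bulge markers, Cd34, Lhx2 and Lgr5 fell in HF-SC GFP, these and Sox9 fell in HF-SC Tom, and 0 rose in either. The part of these cell states in the list was not tested.

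**Figure D5:**
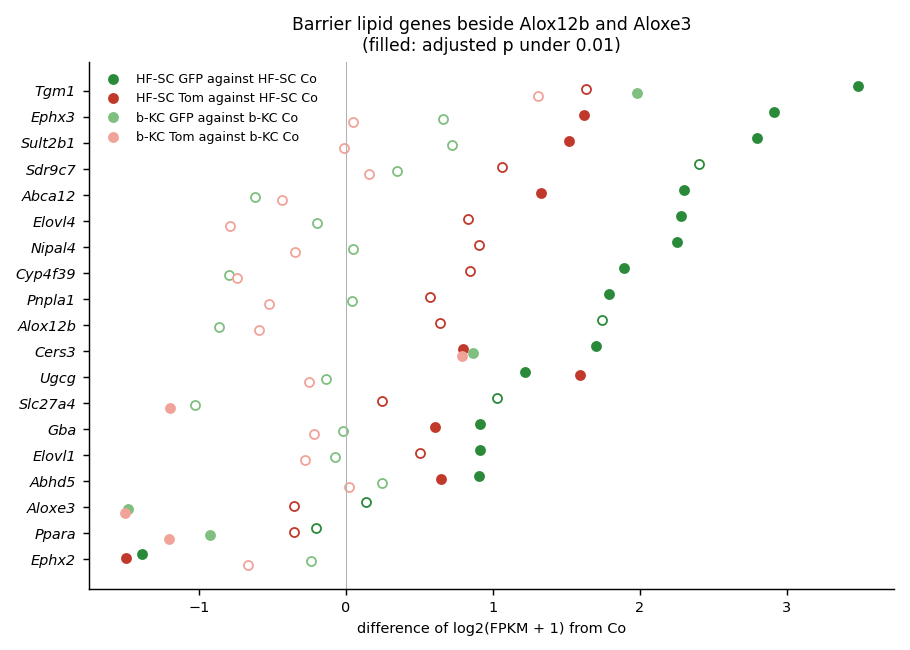
Differences of log2(FPKM + 1) from Co (x axis) for the 17 barrier lipid genes, Alox12b and Aloxe3 (rows, ordered by the HF-SC GFP value) in HF-SC GFP (dark green), HF-SC Tom (dark red), b-KC GFP (light green) and b-KC Tom (light red), filled where the adjusted p-value (limma) was under 0.01. Most HF-SC GFP points lie right of 0, up to 3.48 for Tgm1, while Aloxe3 lies near -1.5 in both b-KC populations.

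The remaining lists are short, and their calls stand beside shares of all genes called against Co of 25.4% (GFP) and 29.6% (Tom) for HF-SCs and of 24.5% (GFP) and 30.8% (Tom) for b-KCs. Of 10 genes that make or remove leukotrienes after Alox5, 5 were tested, of which Dpep1 passed the filter only through DKO* libraries and is left out of the counts. Mgst2, which can join glutathione to leukotriene A4, rose in both HF-SC populations, from a mean of 3.31 FPKM in Co to 24.0 in GFP and 27.4 in Tom, and 0 of the other 3 were called there. Without mouse 817 Ptgr1, which inactivates leukotriene B4, was called as well in HF-SC GFP (0.53, adjusted p = 0.00898, limma), beside 37.2% of all genes. The HF-SC Tom value was 42.3, 30.8 and 9.15 in mice 814, 815 and 817, and with the first 2 left out the difference was not called (1.24, adjusted p = 0.0535, limma). In b-KCs Mgst2 averaged 27.5 FPKM in Co, 76.6 with GFP and 75.0 with Tom, and 0 of the 4 genes were called. With the mouse as a random block Mgst2 was called in both (1.44 and 1.38, adjusted p = 0.00620 and 0.00693, limma, where 26.9% and 32.0% of all genes were called), and without mouse 817 it was called in both as well, as was Lta4h, the leukotriene A4 hydrolase, in b-KC Tom (0.46, adjusted p = 0.00289, limma), beside 45.4% and 43.5% of all genes. Of 9 receptors for lipoxygenase products, 3 were tested. Ltb4r1, the high-affinity leukotriene B4 receptor, rose in all 4 populations, from 3.50 to 23.3 FPKM in HF-SC GFP and 19.8 in HF-SC Tom and, in b-KCs, from 7.30 to 21.1 with GFP and to 40.3 with Tom. Of 4 neutrophil markers, Cxcr2, the only one tested, rose in the same 4 populations, by 1.25 to 2.06. The others did not pass the filter, with at most 0.367 FPKM for Csf3r, 0.686 for Mmp8 and 2.19 for Retnlg. Of 3 Langerhans cell markers, Cd207, the defining one, was at 0.113 to 1.07 FPKM and not tested, Epcam was not called in any comparison, and Cd74, the class II invariant chain of antigen-presenting cells, rose in the 4 populations by 4.41 to 5.95. The part of either cell type in the Ltb4r1 values was not tested. Ltb4r2 rose in HF-SC GFP and b-KC Tom, by 0.74 and 0.69, and Cysltr1 in HF-SC Tom, by 2.16. In HF-SC Tom Cysltr1 had 25.2, 19.8 and 4.79 FPKM in mice 814, 815 and 817, in the order of the endothelial marker sums, whose part was not tested, and with the first 2 left out the difference was not called (0.82, adjusted p = 0.221, limma). In b-KCs Cysltr1 averaged 12.6 FPKM in Co, 7.50 with GFP and 9.20 with Tom, and was not called. Without mouse 817 it was called lower in both (-1.28 and -0.80, adjusted p = 1.68e-05 and 6.61e-04, limma) and higher in HF-SC GFP (0.60, adjusted p = 0.00570, limma), and Ltb4r2 was called higher in b-KC GFP (0.53, adjusted p = 0.00332, limma). Of the 3 glutathione peroxidases, which reduce fatty acid hydroperoxides or hydrogen peroxide, Gpx2 rose in all 4 populations and was higher in GFP than in Tom in both cell types, by 1.55 in HF-SCs and 1.88 in b-KCs, where 4.99% and 0.486% of all genes were called. With mice 814 and 815 left out of HF-SC Tom, Gpx2 was called neither there against Co (1.40, adjusted p = 0.0221, limma) nor between HF-SC GFP and Tom (1.32, adjusted p = 0.107, limma). Gpx1 rose in 3 of the 4, with the call in HF-SC Tom lost in the same fit (0.72, adjusted p = 0.0935, limma). In HF-SC GFP, the fourth, Gpx1 was called with the mouse as a random block (0.88, adjusted p = 0.00822, limma) and without mouse 817 (1.04, adjusted p = 0.00139, limma). Gpx4, which acts on lipid hydroperoxides in membranes, was not called in any comparison.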

How the data were processed

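The study's methods give 51-base single-end sequencing of poly(A) RNA amplified from 4 to 10 ng without strand information, so that antisense reads were not separated. Alignment by the authors used TopHat2 2.0.10 with Bowtie 1.0.0 on mm9, with up to 2 mismatches and 20 multihits, and they deposited a table of FPKM, 1 value for each gene in each library, normalized for transcript length and library size, from Cufflinks 2.2.1 per the submitters' processing notes. The members and lists, and the rules on genes named (all 8 members, genes of 5 pathway lists, Jun and Junb, the 3 genes most like each tested member), were chosen with earlier results of these data known.

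The 12751 genes that reached 1 FPKM in 3 or more libraries were tested on log2(FPKM + 1) with limma 3.58.1 in R 4.3.3 (6 group means over all 18 libraries, trended eBayes) and called at an adjusted p-value under 0.01. The fit was tested on simulated data. Tables and plots used Python 3.11.15, pandas 2.3.3, numpy 2.4.6 and matplotlib 3.10.9. Mouse numbers in the labels pair libraries of the same animal, and across genes their departures from group means correlated with r from 0.08 to 0.70 (21 pairs, mean 0.39). P-values rest on 1 spread per gene, pooled over the 18 libraries around 6 group means and moderated across genes. The main fit took libraries of the same mouse as independent, and mouse blocks were run only as alternatives.

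Depth was inferred from the steps of low FPKM values in 7744 genes with 1 annotated transcript, of which 75.6% to 80.6% lay within 0.1 of whole reads. Reads have no molecular identifiers, so read floors cover counting error only. Positions come from the NCBIM37 annotation. Alternatives were another pseudocount, filters, thresholds, scaling, no trend, only the groups compared, mouse blocks and each mouse left out, and, chosen after seeing the data, mice 814 and 815 left out of HF-SC Tom.

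Cell type lists were examined as summed FPKM. Those not given beside a result were basal keratinocyte markers (5382 to 16370 FPKM, with Krt14 listed at 0 in 3 b-KC libraries), macrophage and dendritic cell (1.01 to 30.9), mast cell (0 to 0.476), T cell (0.339 to 42.0), fibroblast (1.60 to 104) and melanocyte markers (1.11 to 15.8).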

Additional observations from a re-analysis of the deposited data

Results flagged for a closer look

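For 2 members the change from Co differed between HF-SCs and b-KCs by interaction terms in limma. From Co to GFP the difference was -1.84 on the log2 scale for Alox8 (adjusted p = 0.00362, limma) and 1.65 for Alox12 (adjusted p = 0.00772, limma). From Co to Tom it was -2.90 for Alox8 (adjusted p = 7.88e-05, limma) and 1.84 for Alox12 (adjusted p = 0.00256, limma). The Alox8 differences were lower in HF-SCs, where Alox8 was 5.92 FPKM in Co against 0.961 in b-KC Co. For Alox12 the Co means were 1.4998 and 12.9 FPKM.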

How the results depend on the processing

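Of the members' differences that were called or had an unadjusted p-value under 0.05, none changed direction, and 356 of 408 values kept their side of the threshold, while 43 lost a call and 9 gained one. Some medians of the pathway lists did change sign, among them to 0.11 for the phospholipases in HF-SC Tom with mice 814 and 815 left out of it and to 0.14 for the barrier list in b-KC GFP without mouse 817. Adding a log2 fold change of at least 2 left 0 members called in HF-SC Tom against Co, 1 in b-KC GFP against Co, 3 in b-KC Tom against Co, 0 in HF-SC GFP against Tom, 3 between the Co groups, and 0 and 1 in the interactions with GFP and Tom. An adjusted p-value under 0.05 gave 2 members in HF-SC GFP against Co and 3 in the GFP interaction. A pseudocount of 0.1 gave 1 in HF-SC Tom against Co and 1 in each interaction. Where 1 member was left in HF-SC Tom against Co, here and below, it was Alox8. The call lost was that of Alox5ap, which is no test. Shares of all genes called are given below only for the random block and without mouse 817, so the other counts describe the members alone. No filter, and a fit of only the groups compared, each gave 1 in HF-SC Tom against Co and 1 in the GFP interaction, and no filter also gave 4 between the Co groups.

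With the replicate block, the mouse as a random block gave 1 in HF-SC Tom against Co (31.2% of all genes), and 3 in each interaction (10.8% of all genes with GFP and 13.4% with Tom). The mouse as a fixed block gave 0 in HF-SC GFP against Tom. The block changed no other count of members. Leaving mice 814 and 815 out of HF-SC Tom, chosen after seeing the data, gave 1 in HF-SC Tom against Co and 0 in HF-SC GFP against Tom, where the lone HF-SC Tom library was assumed to vary like the other groups.

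With each mouse left out in turn the counts ranged from 1 to 3 in HF-SC GFP against Co, from 1 to 2 in HF-SC Tom against Co, from 0 to 4 in HF-SC GFP against Tom, from 0 to 2 in b-KC GFP against Tom and from 3 to 5 between the Co groups. They ranged from 0 to 5 in the GFP interaction and from 1 to 3 in the Tom interaction. The highest counts came without mouse 817 in the comparisons that involve GFP and in the Tom interaction. Fewer mice per group are part of each of these fits, and other causes were not tested. Depth limits Alox15, Alox5 and Alox5ap most, with 0 to 41.9 reads per library.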
